A study of Apis mellifera with 18 samples.

Results

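RNA from honey bee (Apis mellifera) tissue that the labels call tentacles was compared between bees of a collection group for olive pollen (Olea europaea, called olea here) and bees of a collection group for pear pollen. Each group had 3 libraries, so the comparison used 6 of the 18 libraries of the series. The 3 tentacles libraries of the control group, which had no pollen, are given as levels beside the results and took no part in the test. The series title names Italian honey bees and their collection preference, and the other libraries came from mouthparts and were not analysed here. The labels give pollen as the only difference between the groups. They do not give the colony, the age of the bees, the day of collection or the task of the bees, so pollen and these conditions cannot be told apart. They also do not say whether a replicate was 1 bee, a pool or a repeated preparation, so every p-value measures the spread between these libraries, which may be technical.

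Insect antennae carry sensory hairs in which odorant binding proteins carry scent molecules to odorant receptors on the membrane of ciliated neurons. Muscle cells contract when calcium reaches the troponin complex on the thin actin filament, which lets the myosin heads of the thick filament pull on it. Titin-like proteins hold the thick filament in place, and calcium is stored in and released from the sarcoplasmic reticulum.

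Levels below are counts per 1e6 counts of a library (CPM), and changes are log2 fold changes of olea minus pear with their standard error. Means are given ± SD over the 3 libraries of a group. Total counts were 26.4, 30.2 and 28.3 M (1e6 counts) in the olea libraries and 31.1, 29.2 and 30.5 M in the pear libraries, with 30.5 to 41.4 M in the control libraries. Replicates lay close together, with a biological coefficient of variation of 0.0401 in the olea group and 0.0419 in the pear group, against 0.123 in the control group. The first principal component of the 6 libraries held 29.3% of the variance and separated the 3 olea from the 3 pear libraries. Odorant receptor 2 (GB40730), the name in the honey bee of the co-receptor shared by the odorant receptors, had 601, 596 and 607 CPM in the olea libraries and 627, 631 and 630.5 CPM in the pear libraries. The co-receptor of the odorant sensing neurons was thus detected in every library. The 28 odorant carrier genes took 6.545% of counts with olea and 6.402% with pear, and the 144 odorant receptor genes 0.289% and 0.294%. The 63 muscle genes took 1.07% and 0.874%, and the 25 venom genes 0.392% and 0.4145%. Glia genes (10) took 0.225% and 0.238%. Photoreceptor, fat body and haemocyte genes took smaller shares. The 11 photoreceptor genes of the table took 0.00492% of counts with olea and 0.00474% with pear, and the 5 fat body genes took 0.136% with olea and 0.153% with pear. The 4 haemocyte genes took 0.0306% of counts with olea and 0.0262% with pear.

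Of 12687 genes with enough counts, 1413 (11.1%) differed between olea and pear at an adjusted p under 0.05 in edgeR's quasi-likelihood test with Benjamini-Hochberg adjustment. The olea libraries were higher for 767 genes (6.05%) and lower for 646 (5.09%). In 766 of the 767 higher genes (99.9%) every olea library lay above every pear library. A lack of overlap therefore adds little for a higher gene that passed. Scaling by total counts alone gave 879 higher and 480 lower. Most differences were small, since the median change of the 1413 genes was 1.16-fold in either direction. A change of at least 1.5-fold was found for 128 higher and 31 lower genes, and one of at least 2-fold for 38 higher and 11 lower genes. With the 3 control libraries in the same fit, which vary more, 337 of 12950 genes (2.6%) passed, and 334 of them were among the 1413. Leaving out olea replicate 1 left 933 genes, and leaving out pear replicate 1 left 940. Of the 1413 genes, 245 had no name in the files. Of the 168 genes named here that passed, 88 also passed in the fit with the controls, and 130 passed whichever pollen library was left out.

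**Figure D1:**
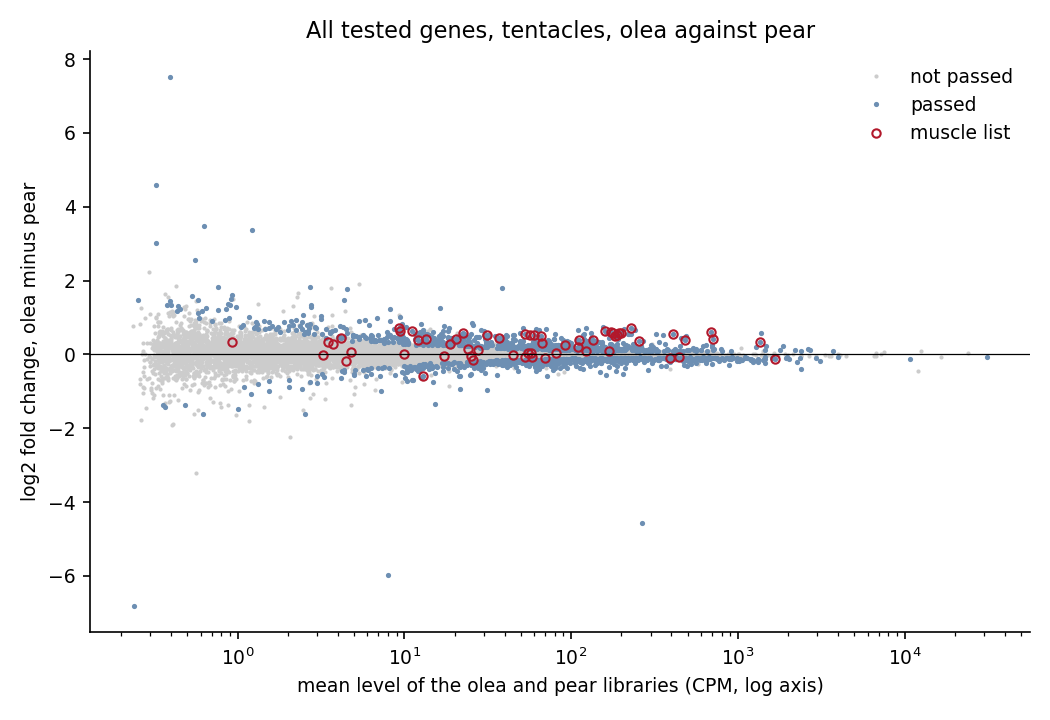
Log2 fold change of olea minus pear (vertical axis) against the mean level of the olea and pear libraries in CPM (horizontal axis, log scale) for every tested gene in the tentacles. Genes that passed are blue, the others grey, and the 59 tested muscle genes are ringed in red. Most ringed genes lie above 0.

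Among the 29 gene lists examined, the muscle list had the highest share of members that passed, 59.3%. Of 63 muscle genes found, 59 were tested, 32 were higher with olea, 3 were lower and 24 did not pass. In 37 of the 59 tested muscle genes (62.7%) every olea library lay above every pear library, which was so for 16.7% of all genes tested. The 32 higher genes ran from 1.15-fold to 1.65-fold. The median log2 fold change of the 59 genes was 0.345, and that of all genes tested was 0.0. The list was assembled from gene names with earlier results of these data known, so its count is a description. As these are bulk samples, more muscle cells and more muscle RNA per cell cannot be told apart.

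Among thick filament genes 12 of 18 were higher (66.7%) and 1 was lower (5.56%), beside 6.05% and 5.09% over all genes. The muscle myosin heavy chain (GB51652), the motor protein of the thick filament, had 228, 239.8 and 229 CPM with olea and 148, 155 and 156 CPM with pear. All olea libraries were above all pear libraries, and the change was 0.59 ± 0.03 in log2 (edgeR adjusted p = 1.1e-08). The essential light chain (myosin light chain alkali, GB51787) had 203, 194 and 191 CPM with olea and 125, 119.8 and 132 CPM with pear, and the regulatory light chain 2 (GB40240) had 212, 217 and 212 CPM with olea and 136, 136 and 151 CPM with pear. Both were again apart without overlap, and they changed by 0.63 ± 0.04 and 0.58 ± 0.04 in log2. Myofilin (GB42792), a thick filament protein of insects, averaged 63.1 ± 4.7 CPM with olea and 42.6 ± 2.7 CPM with pear (SD, n = 3 each).

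Several gene models hit titin, whose relatives in insects act as springs between the thick filament and the Z-disc. GB47977 had 1530, 1479 and 1579 CPM with olea and 1169, 1185 and 1214 CPM with pear, and the change was 0.34 ± 0.02 in log2. GB55483 averaged 838 ± 18 CPM with olea and 547 ± 28 CPM with pear, and GB50976 averaged 224 ± 2.8 CPM with olea and 153 ± 0.28 CPM with pear. GB50974, GB50975, GB47948, GB47944 and Apis_mellifera_newGene_1849 were also higher, by 0.40, 0.42, 0.25, 0.40 and 0.65 in log2. GB47976 went the other way and averaged 10.5 ± 0.69 CPM with olea and 15.4 ± 0.71 CPM with pear. These models can be pieces of 1 gene or relatives that share a name, and the files do not say which.

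Thin filament genes were higher in 13 of 20 cases (65%) and lower in none, beside 6.05% and 5.09% over all genes. Troponin C (GB40619), which binds the calcium, had 484, 498 and 490.1 CPM with olea and 329, 332 and 329 CPM with pear. The groups were far apart against their spread, with a change of 0.56 ± 0.02 in log2 (edgeR adjusted p = 2.2e-09). Troponin T (GB51214), which ties the complex to tropomyosin, had 221, 203 and 209.5 CPM with olea and 137, 138 and 139 CPM with pear. Troponin I (GB55598), the inhibitory subunit, had 240.5, 236 and 243 CPM with olea and 159, 147 and 169.7 CPM with pear. The 3 subunits differed by similar amounts, between 1.47-fold and 1.51-fold. The further troponin C genes GB45174 and GB45211 were higher by 0.59 and 0.43 in log2.

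Tropomyosin-1 (GB47990), which covers the myosin binding sites of actin at rest, averaged 215 ± 4.7 CPM with olea and 149 ± 2.5 CPM with pear. The further tropomyosin models GB55325 and GB55326 were also higher, by 0.52 and 0.28 in log2. Muscle-specific protein 20 (GB54817), a calponin-like actin binding protein, had 294, 293 and 278 CPM with olea and 169.6, 178 and 169.5 CPM with pear, the greatest change among the muscle genes that passed, at 0.72 ± 0.03 in log2. Its relatives GB50112, GB50110, myophilin (GB50123) and the calponin domain gene GB55328 were higher by 0.53, 0.45, 0.49 and 0.39 in log2.

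In calcium handling and energy supply, 4 of 8 genes were higher (50%) and 1 was lower (12.5%), beside 6.05% and 5.09% over all genes. The calcium pump of the sarcoplasmic reticulum (GB49320) had 823, 811 and 795 CPM with olea and 598, 594 and 608 CPM with pear. The ryanodine receptor (GB55650), its calcium release channel, averaged 554 ± 14 CPM with olea and 417 ± 1.6 CPM with pear. Junctophilin (GB45141), which holds the reticulum against the plasma membrane, averaged 291 ± 4.2 CPM with olea and 222 ± 10.1 CPM with pear, and junctophilin-1 (GB45140) differed by 0.21 ± 0.04 in log2. The pump, the release channel and junctophilin GB45141 were 1.33, 1.31 and 1.30-fold higher. Their libraries did not overlap, as in 99.9% of all higher genes. Arginine kinase (GB54446), which buffers ATP in insect muscle and nerve, was slightly lower at 1607 ± 21 CPM with olea against 1724 ± 7.2 CPM with pear.

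Of 13 genes of the Z-disc, of muscle attachment and of the dystrophin complex 3 were higher (23.1%), 1 was lower (7.69%) and 9 did not pass. Over all genes tested 6.05% were higher and 5.09% lower. The PDZ and LIM domain genes GB51089 and GB51091 were higher by 0.64 ± 0.09 and 0.43 ± 0.08 in log2. Of the dystrophin-like models GB51545 was higher by 0.32 ± 0.04 in log2 and GB51550 lower, at -0.10 ± 0.03 in log2. Sarcomeric alpha-actinin (GB43198), which anchors actin at the Z-disc and is named here after its values were seen, did not pass, with a change of 0.09 ± 0.03 in log2 (edgeR adjusted p = 0.1).

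The 63 muscle genes took 1.074%, 1.068% and 1.072% of all counts in the olea libraries and 0.866%, 0.872% and 0.885% in the pear libraries. The means were 1.07 ± 0.0030% with olea and 0.874 ± 0.0094% with pear, a difference of 0.197 percentage points (two-sided exact permutation test, p = 0.1, the smallest value that 3 libraries against 3 allow). The control libraries lay at 1.08 ± 0.024%, beside the olea group. Of the 32 higher genes the control libraries overlapped the olea libraries in 12 and lay above both pollen groups in 12, between them in 5, among the pear libraries in 2 and below both in 1.

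**Figure D2:**
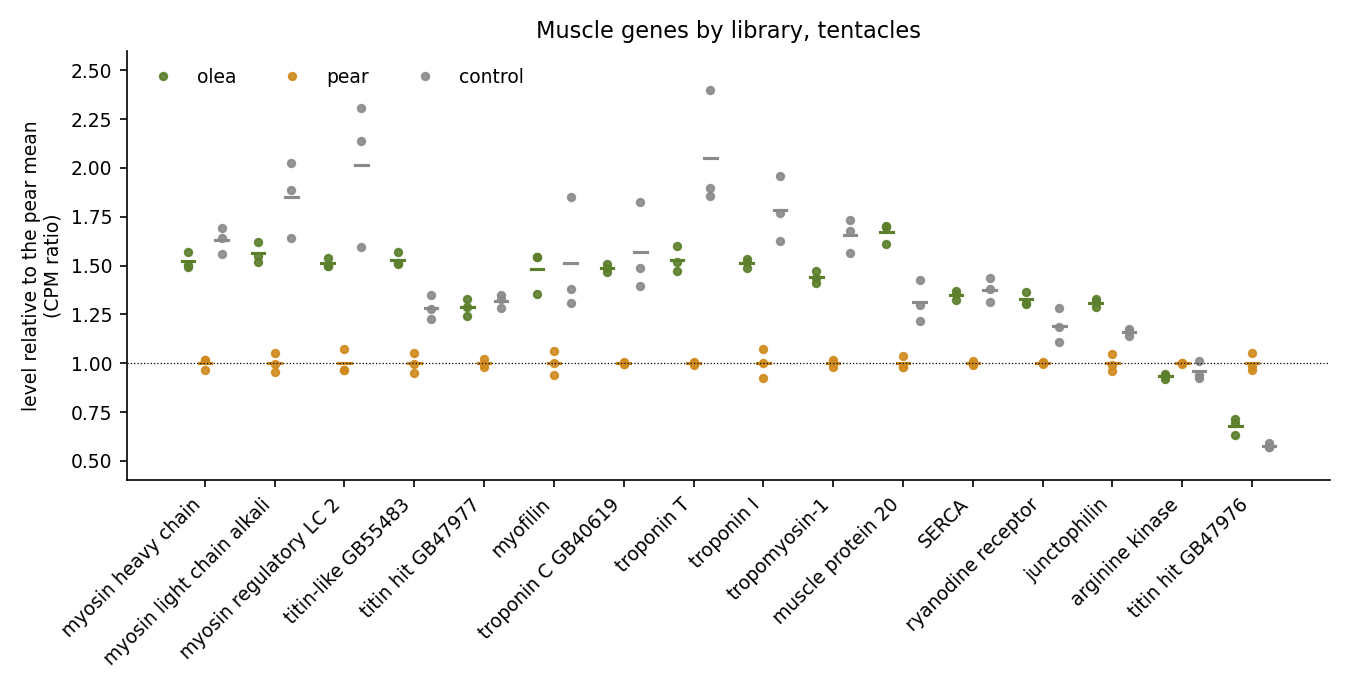
Level of 16 muscle genes in each tentacles library divided by the mean of the 3 pear libraries (vertical axis, CPM ratio), with olea at the left, pear in the middle and control at the right of each gene. Points are libraries and bars are group means. Olea points lie above the pear points in the first 14 genes and below them for arginine kinase and the titin hit GB47976.

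Of 36 other genes of the cytoskeleton 13 were higher (36.1%), 1 was lower (2.78%) and 22 did not pass, beside 6.05% higher and 5.09% lower over all genes tested. The median log2 fold change of the 36 was 0.083. Actin models were among the higher genes. Actin-5C (GB41311) had 31.9, 34.5 and 32.7 CPM with olea and 18.5, 19.2 and 18.3 CPM with pear, and the cytoplasmic actin models GB41310, GB41308 and GB41306 changed by 0.66 ± 0.04, 0.56 ± 0.04 and 0.60 ± 0.04 in log2. Another actin model, GB43029, had 23.7, 16.3 and 29.5 CPM with olea and 9.79, 9.14 and 9.74 CPM with pear, so its change of 1.25 ± 0.24 in log2 comes with a wide spread between the olea libraries (edgeR adjusted p = 0.036). It did not pass without olea replicate 1 or without any 1 of the pear libraries, with adjusted p up to 0.15. Actin genes are near copies of each other, so reads may be shared between these models and with muscle actin, and their single values are uncertain. In the first 3 the control libraries lay above both pollen groups. The tubulin alpha-1C chain (GB53137), a microtubule subunit, was the lower member at 561 ± 7.6 CPM with olea against 597 ± 6 CPM with pear.

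Transglutaminases, which join proteins through glutamine and lysine and take part in clotting of insect haemolymph, were among the 12 named genes with the largest increases. GB45708 had 12.4, 12.6 and 12.9 CPM with olea and 5.94, 5.79 and 6.82 CPM with pear, and the change was 1.01 ± 0.09 in log2 (edgeR adjusted p = 2.6e-06). GB45714 and GB45713 changed by 0.83 ± 0.09 and 0.74 ± 0.08 in log2, and for all of them the control libraries were above both groups. Laminin subunit alpha (GB49929), part of the basement membrane, averaged 12.9 ± 0.51 CPM with olea and 7.60 ± 0.67 CPM with pear. Hemicentin-2-like (GB51385), an extracellular protein in other animals, averaged 6.997 ± 0.56 CPM with olea and 3.66 ± 0.45 CPM with pear. Hemocytin (GB41850), a clotting protein made by haemocytes, had 169, 176 and 171 CPM with olea and 139, 136 and 132 CPM with pear and was the only one of 4 haemocyte genes to pass, though 2 passed without olea replicate 1. The transglutaminase models share a name and may share reads.

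The share of genes that were higher with olea was greatest among the longest transcripts. The tested genes were split by transcript length into 10 classes of equal size. In the longest class, from 4.99 to 77.4 kb, 18.8% were higher with olea and 6.07% lower, whereas in the other classes 2.84% to 8.04% were higher. The lengths are those implied by the ratio of the deposited counts to FPKM. Without the longest class 528 genes were higher and 569 lower, and of the 50 remaining muscle genes 26 were higher and 3 lower, with a median log2 fold change of 0.331. Cytoplasmic dynein heavy chain (GB47452), a motor of transport along microtubules, had 256, 270.4 and 249.6 CPM with olea and 161, 157 and 159 CPM with pear. Nesprin-1 (GB40007), which ties the nucleus to actin, averaged 75.8 ± 3.7 CPM with olea and 46.6 ± 4.3 CPM with pear, and the ubiquitin ligase HUWE1 (GB51405) averaged 64.3 ± 1.5 CPM with olea and 38.7 ± 1.6 CPM with pear. These 3 were chosen after their values were seen. The part of transcript length or library depth in the single results was not tested.

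**Figure D3:**
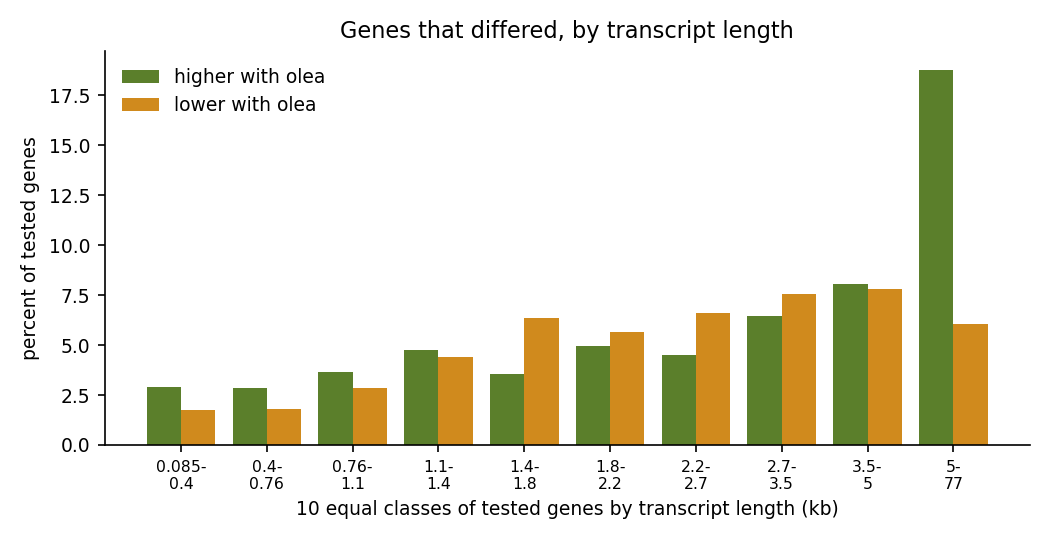
Percent of tested genes that were higher (left bar) or lower (right bar) with olea than with pear, for 10 classes of equal size of the 12687 genes, ordered by transcript length in kb. The longest class has 18.8% higher and 6.07% lower.

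Some of the largest single differences were in genes that the files do not pair with a name, 4 of which are given here and were chosen after their values were seen. GB43330 had 27.1, 19.1 and 19.1 CPM with olea and 469, 548 and 508 CPM with pear, and the change was -4.57 ± 0.16 in log2 (edgeR adjusted p = 0.00025). The control libraries had 25.9, 20.6 and 80.7 CPM, so the pear libraries stood apart from both other groups. GB47541 had 0.228, 0.265 and 0.247 CPM with olea and 11.6, 15.7 and 19.8 CPM with pear, with 0.278, 0.242 and 0.36 CPM in controls, the same order of groups. In the other direction GB48969 had 2.58, 1.72 and 2.40 CPM with olea and 0.289, 0.103 and 0.23 CPM with pear, both far under the 38.9 ± 2.8 CPM of the controls. Apis_mellifera_newGene_1520 averaged 4.24 ± 0.86 CPM with olea and 1.17 ± 0.099 CPM with pear, and the controls had 4.57 ± 0.46 CPM.

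Among passed genes with a name, at least 5 CPM and no overlap between groups, the largest increase was in Apis_mellifera_newGene_1353, whose best hit is the splicing factor SRRM2. It had 52.3, 61.2 and 67.1 CPM with olea and 16.4, 18.04 and 17.3 CPM with pear, a change of 1.79 ± 0.09 in log2 (edgeR adjusted p = 5e-07). A BAH domain gene (GB41747), a domain found in chromatin proteins, averaged 33.1 ± 2 CPM with olea and 18.04 ± 0.72 CPM with pear. The rho guanine nucleotide exchange factor osg-1 (GB49730), an activator of small GTPases of the actin cytoskeleton, averaged 23.3 ± 0.59 CPM with olea and 13.9 ± 0.45 CPM with pear. Among the decreases, an acyltransferase family gene (GB49078) averaged 8.59 ± 0.3 CPM with olea and 13.8 ± 0.8 CPM with pear, and mucin-2 (GB54139) averaged 17.5 ± 0.75 CPM with olea and 25.9 ± 2.5 CPM with pear. The CD63 hit Apis_mellifera_newGene_1258, GB46249, GB49462 and GB41586 were lower, at -0.64, -0.60, -0.58 and -0.57 in log2.

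**Figure D4:**
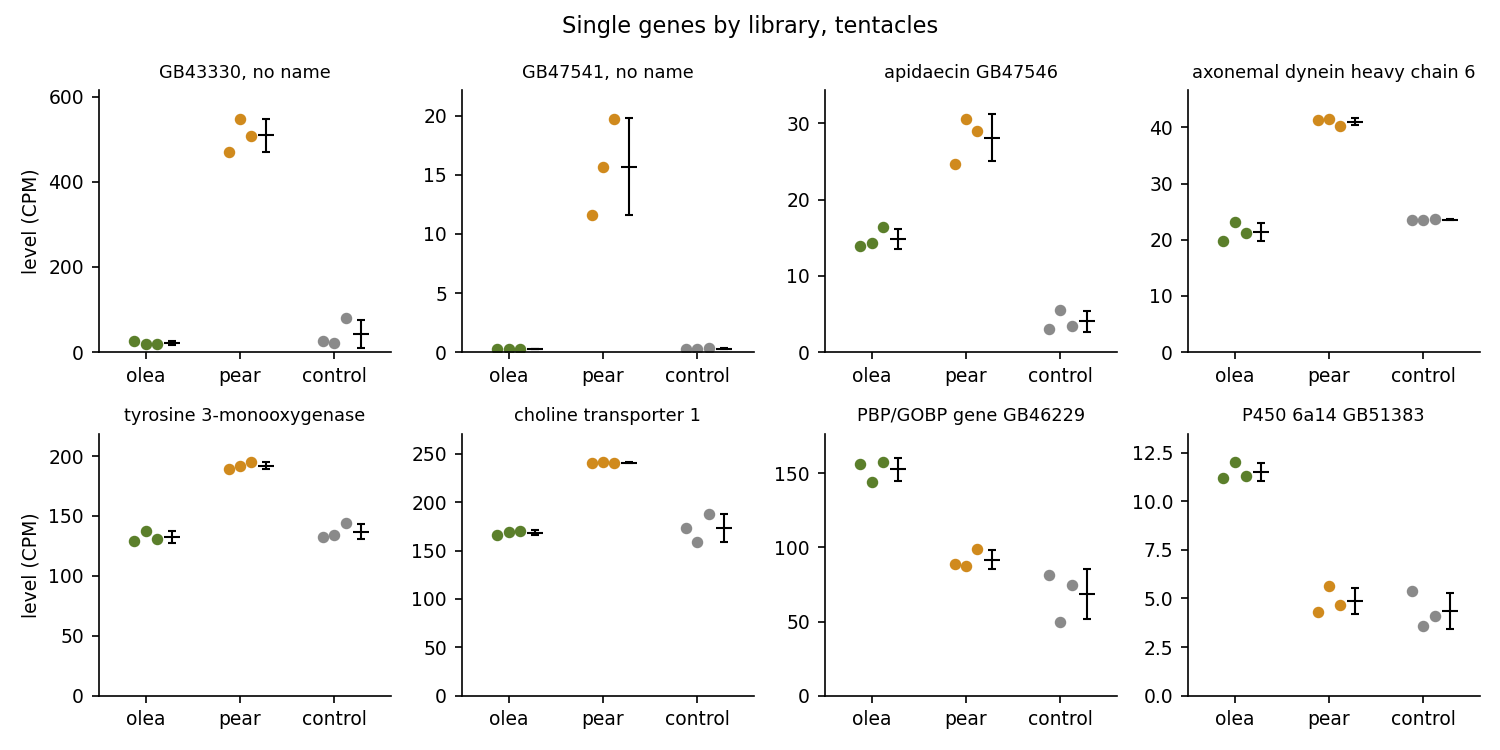
Level in CPM of 8 genes in each tentacles library, with olea at the left, pear in the middle and control at the right of each panel. Points are libraries and the black marks beside them are the mean and SD of the group. Pear points lie above all olea and control points in every panel except those of GB46229 and GB51383. In all 8 the olea and pear points do not overlap, but several of the genes were chosen by that or after their values were seen. Over all genes tested, every olea library lay above every pear library in 16.7% and below in 11.1%.

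Cilia and axonemes were examined because odorant receptors sit on cilia. Of 78 tested genes 6 were higher and 4 lower, close to the background of 6.05% and 5.09%, and without pear replicate 3 the numbers were 5 and 6. Axonemal dynein heavy chain 6 (GB55144), an arm motor of moving cilia, had 19.8, 23.1 and 21.3 CPM with olea and 41.2, 41.6 and 40.2 CPM with pear. The pear libraries were 1.94-fold above the olea libraries (edgeR adjusted p = 4.8e-08), and the control libraries had 23.5, 23.5 and 23.6 CPM. Dynein heavy chain 2 (GB43377) went the same way, at 7.86 ± 1.1 CPM with olea against 12.9 ± 0.41 CPM with pear. Radial spoke head 1 (GB42575) and Bardet-Biedl syndrome 1 (GB50742), a cargo adaptor of cilia, were lower, at -0.98 and -0.14 in log2. GB42575 is not among the 12 largest named decreases, which needed at least 5 CPM and no overlap between groups. Neither gene passed with the control libraries in the fit. Heavy chains 10 (GB53320) and 12 (GB43214) and the assembly factors GB54231 and GB55875 were instead higher, by 0.28, 0.23, 0.51 and 0.49 in log2. Of these higher genes GB54231 also passed with the control libraries in the fit, whereas GB53320, GB43214 and GB55875 did not.

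Of 143 odorant receptor genes 4 were higher and 9 lower, and the 9.09% that passed lie near the 11.1% of all genes tested. With scaling by total counts alone 6 were higher and 7 lower. The count depended on single libraries, with 0 higher and 4 lower without olea replicate 1, 1 and 5 without olea replicate 3 or pear replicate 1, and 2 and 4 without pear replicate 2. Of 9 gustatory and 4 ionotropic receptor genes none passed. Odorant receptor 2 (GB40730) was lower, at -0.08 ± 0.02 in log2. GB52371 had 113 ± 0.54 CPM with olea and 125 ± 2.1 CPM with pear, and GB45078 had 12.2 ± 0.87 CPM with olea and 15.8 ± 0.31 CPM with pear. GB43024 and GB51945 were lower, at -0.29 and -0.27 in log2, whereas GB48735, GB52413, GB52414 and GB52374 were higher by 0.69, 0.34, 0.20 and 0.28 in log2. The members of the other receptor families with the smallest p were a gustatory receptor (GB53326) at -0.20 ± 0.14 in log2 (edgeR adjusted p = 0.42) and ionotropic receptor 93a (GB50521) at 0.19 ± 0.10 in log2 (adjusted p = 0.28). Odorant receptors form a large family of similar genes, so single members are uncertain where reads could be shared.

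Proteins that carry odorants moved in both directions. Of 26 tested, 4 were higher (15.4%) and 2 lower (7.69%), beside 6.05% and 5.09% over all genes. The pheromone or general odorant binding family gene GB46229 had 156, 144 and 158 CPM with olea and 88.6, 87.4 and 99.01 CPM with pear, and the change was 0.72 ± 0.05 in log2 (edgeR adjusted p = 1.5e-06). Its family member GB46228 had 162, 149 and 165 CPM with olea and 102, 101 and 111 CPM with pear. Both were higher in every olea library than in any pear library, and the controls were at or under the pear level. GB53367 and GB52324 were higher by 0.15 and 0.09 in log2. GB52324 is in the list through its domain annotation, whereas its KEGG annotation names a transcriptional adapter. GB46230, of the same domain family as GB46229, fell to 2923 ± 56 CPM with olea, against 3271 ± 155 CPM with pear. Sensory neuron membrane protein 1 (GB48343), which helps insect neurons detect fatty odorants, had 1150, 1166 and 1119 CPM with olea and 1320, 1321 and 1298 CPM with pear, and the change was -0.21 ± 0.02 in log2.

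Of 30 genes for making, packing and sensing biogenic amines, 3 were higher (10%) and 3 lower (10%), beside 6.05% and 5.09% over all genes. Tyrosine 3-monooxygenase (tyrosine hydroxylase, GB40967), the first step towards dopamine, had 129, 138 and 130.5 CPM with olea and 189, 192 and 195 CPM with pear. The groups did not overlap, the change was -0.55 ± 0.03 in log2 (edgeR adjusted p = 2.2e-08) and the controls had 132, 134 and 144 CPM, near the olea level. Tyramine beta-hydroxylase (GB40694), which makes octopamine, averaged 23.7 ± 1.6 CPM with olea and 28.9 ± 2.7 CPM with pear, and dopamine N-acetyltransferase (GB51044) was lower, at -0.09 in log2. The vesicular amine transporters GB42802 and GB42801, which load amines into vesicles, averaged 82.97 ± 0.7 and 56.1 ± 0.4 CPM with olea against 62.9 ± 1.9 and 45.6 ± 1.1 CPM with pear. Aromatic amino acid decarboxylase (GB45973) was higher by 0.17 in log2. So the first enzyme and the transporters moved in opposite directions.

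Synapse genes were split, with 7 of 48 higher (14.6%) and 8 lower (16.7%), beside 6.05% and 5.09% over all genes. With scaling by total counts alone 9 were higher and 8 lower. The higher count depended on single libraries. It was 3 higher and 7 lower without olea replicate 1, 4 and 6 without olea replicate 2, and 5 and 7 without olea replicate 3. Without pear replicates 1, 2 and 3 in turn the numbers were 3 and 8, 4 and 7, and 7 and 9. Synaptic vesicle glycoprotein 2C-like (GB50473) had 57.9, 59.6 and 57.1 CPM with olea and 89.5, 85.4 and 82.8 CPM with pear, and glycoprotein 2B (GB41065) averaged 125 ± 6.7 CPM with olea and 174 ± 4.3 CPM with pear. They changed by -0.58 ± 0.04 and -0.49 ± 0.04 in log2 and belong to the membrane proteins of synaptic vesicles. The vesicular glutamate transporter (GB44987) and synaptotagmin-12 (GB50845) were lower, at -0.17 and -0.20 in log2. The neurexins GB52279 and GB52281, adhesion proteins of synapses, were higher by 0.40 and 0.28 in log2, as were synaptotagmins 4 (GB40794) and 7 (GB55262) by 0.10 and 0.17 in log2. The high-affinity choline transporter (GB41372), which supplies choline for acetylcholine and was picked after its values were seen, had 166, 169.5 and 170.2 CPM with olea and 241, 242 and 240.1 CPM with pear. Its change of -0.53 ± 0.03 in log2 was close to that of tyrosine 3-monooxygenase, and the controls had 173, 159 and 188 CPM.

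Of 126 ion channel genes 22 were higher (17.5%) and 6 lower (4.76%), beside 6.05% higher and 5.09% lower over all genes tested. Without olea replicate 3 the numbers were 12 and 4. The potassium channel of the KQT family (GB51854) had 100.1, 92.2 and 95.7 CPM with olea and 63.9, 60.3 and 68.7 CPM with pear, and the change was 0.56 ± 0.05 in log2 (edgeR adjusted p = 1.1e-06). The sodium channel 60E (GB47190) averaged 52.9 ± 1.2 CPM with olea and 36.6 ± 0.98 CPM with pear. The inward rectifier GB54150 and the Shab potassium channel GB46981 were higher by 0.33 and 0.36 in log2. The TRPV channel GB44065, whose relatives in insects serve hearing and touch, averaged 40.8 ± 3.4 CPM with olea and 55.5 ± 1.7 CPM with pear. TMC channel 3 (GB45809), potassium channel K10 (GB51434) and the sodium channel subunit TipE (GB47517) were lower, at -0.22, -0.14 and -0.29 in log2. Of the 24 channel genes in the longest class of transcripts, 9 were higher and none lower, and among the other 102 the numbers were 13 and 6.

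Of 44 cytochrome P450 genes, which take part in detoxification, 3 were higher (6.82%) and 12 lower (27.3%). Of 55 other detoxification genes 6 were higher (10.9%) and 11 lower (20%), beside 6.05% higher and 5.09% lower over all genes tested. In the fit with the controls 2 P450 genes were higher and 2 lower, and of the other detoxification genes 0 were higher and 1 lower. Without a single library the other detoxification genes had 2 higher and 7 lower (olea replicate 1), 5 and 5 (olea replicate 3), 3 and 5 (pear replicate 1) or 5 and 6 (pear replicate 2). With scaling by total counts alone the numbers were 4 and 9 for the P450 genes and 7 and 7 for the others. P450 6a14 model GB51383 had 11.2, 12.01 and 11.3 CPM with olea and 4.30, 5.62 and 4.66 CPM with pear, the largest change among the P450 genes that passed, at 1.23 ± 0.11 in log2 (edgeR adjusted p = 2.2e-06). The lower members changed less. P450 9e2 (GB43728) fell to 1349 ± 26 CPM with olea, against 1570 ± 46 CPM with pear, and GB43715, GB49886 and GB40287 changed by -0.28, -0.24 and -0.19 in log2. GB40288 and GB45651 were higher by 0.34 and 0.22 in log2. Several of these share the name 6a14, so reads may be shared. Of the other enzymes and pumps, UDP-glucuronosyltransferase 2C1 (GB47301), multidrug resistance-associated protein 1 (GB50101) and the carboxylesterases GB47299 and GB52052 were lower, at -0.23, -0.15, -0.14 and -0.14 in log2. Multidrug resistance protein 49 (GB55378), GB48046, GB45277 and GB40997 were higher by 0.13, 0.55, 0.10 and 0.28 in log2.

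Immune genes were higher in 2 of 31 cases (6.45%) and lower in 5 (16.1%), beside 6.05% and 5.09% over all genes. Without olea replicate 1 or without olea replicate 3 the numbers were 3 and 3. Apidaecin, a short antibacterial peptide of bees, was covered by GB47546, which had 13.9, 14.4 and 16.4 CPM with olea and 24.7, 30.6 and 29.03 CPM with pear, and by GB46236, with 4.67, 4.33 and 5.79 CPM with olea and 9.86, 7.98 and 11.02 CPM with pear. Both lay lower with olea than with pear in every library and higher than in controls, where GB47546 had 3.08, 5.58 and 3.47 CPM. Their changes were -0.94 ± 0.09 and -0.98 ± 0.13 in log2 (edgeR adjusted p = 5.8e-06 and 0.0002), and the models may share reads. Toll (GB43456), a receptor of the pathway, and dorsal (GB44032), its transcription factor, were lower, at -0.16 and -0.09 in log2. Cactus (GB44185), the inhibitor of that factor, was higher by 0.25 in log2, and the lysozyme family gene GB40164 by 0.44 in log2. Among serine proteases and their inhibitors 4 of 61 were higher (6.56%) and 9 lower (14.8%), or 5 and 7 with scaling by total counts alone. That split did not hold without each library, with 7 higher and 4 lower without olea replicate 3, 3 and 3 without pear replicate 1, 2 and 3 without pear replicate 2, and 2 and 6 without olea replicate 1 or olea replicate 2. Among those that passed was serpin A (GB50522) at 331 ± 4.7 CPM with olea against 409 ± 5.6 CPM with pear. Trypsin-3 (GB46203), the Kazal inhibitor GB50009 and GB45700 were lower, at -0.28, -0.16 and -0.15 in log2, and neurotrypsin (GB49601), GB50119, GB54541 and GB56027 were higher by 0.25, 0.42, 0.16 and 0.20 in log2.

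The cGMP-dependent protein kinase is known as the foraging gene, with higher expression in forager bees than in nurses. Both of its models were lower with olea, GB49908 at 117 ± 1.3 CPM with olea against 136 ± 2.8 CPM with pear and GB49907 at 11.4 ± 0.12 CPM with olea against 14.5 ± 0.64 CPM with pear. Their changes were -0.23 ± 0.03 and -0.36 ± 0.08 in log2. The 2 models of period, a clock gene (GB52078 and GB52077), were higher by 0.21 and 0.26 in log2. GB41003, named protein timeless homolog, was lower, at -0.88 in log2, and whether it serves the clock was not tested. It is not among the 12 largest named decreases, which needed at least 5 CPM and no overlap between groups. GB41003 did not pass without olea replicate 3 or without pear replicate 2 (edgeR adjusted p up to 0.073). The controls were above both groups for the kinase and for period. Of 11 clock and foraging genes 2 were higher (18.2%) and 3 lower (27.3%), beside 6.05% and 5.09% over all genes. The numbers were 1 and 2 without olea replicate 3, and 2 and 2 without pear replicate 2. Of 25 genes in the list of nuclear receptors and activity genes 2 were higher, HR38 (GB49295) and NR4A2 (GB40074) by 0.26 and 0.14 in log2. HR3 (GB47513) was lower, at -0.15 in log2. The 12% of that list that passed lay near the 11.1% of all genes tested. With scaling by total counts alone 2 were higher and none lower, and leaving out any 1 library gave 0 or 1 higher and 0 or 1 lower. Of 21 neuropeptide genes the CCHamide-2 receptor (GB40054) was higher by 0.20 in log2 and the corazonin receptor (GB44824) lower, at -0.27 in log2. The 9.52% of neuropeptide genes that passed lay near the 11.1% of all genes tested.

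Genes of metabolism and of the cuticle showed counts in both directions. For glycolysis and sugar use 7 of 46 were higher (15.2%) and 4 lower (8.70%), beside 6.05% and 5.09% over all genes. The numbers were 7 and 2 with scaling by total counts alone, and 6 and 1 without olea replicate 2 or pear replicate 2. Alpha-glucosidase (GB43247), glycogen phosphorylase (GB42835), GB43005 and glycogen synthase (GB54391) were higher by 0.23, 0.26, 0.18 and 0.20 in log2, and trehalase (GB43575) was lower, at -0.15 in log2. Oxidative phosphorylation had 0 of 70 higher and 3 lower (4.29% passed, under the 11.1% of all genes), but 4 and 4 without pear replicate 3, 1 and 4 without olea replicate 2, and 0 and 1 without olea replicate 1 or pear replicate 2. Among the lower genes was succinate dehydrogenase (GB47043) at -0.15 in log2. Of 76 cytosolic ribosomal protein genes 2 were higher (2.63%) and 3 lower (3.95%), under the shares over all genes. The count rested on single libraries, with 14 higher and 4 lower without pear replicate 3 and 7 and 5 without olea replicate 2. It was 0 and 2 without olea replicate 1 and 0 and 1 without pear replicate 2. None passed without olea replicate 3 or without pear replicate 1. Of the 5 the furthest was 0.13 in log2 for L27 (GB49177). For fatty acid and hydrocarbon synthesis 4 of 37 were higher (10.8%) and 6 lower (16.2%). Without olea replicate 1 or pear replicate 1 there were 4 and 4. The fatty acyl-CoA reductases GB50627 and GB53524 moved apart, with 763 ± 13 CPM with olea against 628 ± 23 CPM with pear for the first and 170.0 ± 4.3 CPM with olea against 209 ± 3.3 CPM with pear for the other. The elongases GB54401 and GB54400 were higher by 0.18 and 0.19 in log2, and the desaturase GB51236 was lower, at -0.18 in log2. Of 78 cuticle genes 6 were higher (7.69%) and 5 lower (6.41%), near the shares over all genes. The numbers were 6 and 2 with scaling by total counts alone. Without olea replicate 3 or pear replicate 1 they were 4 and 2, and without pear replicate 2 they were 5 and 2. Among the higher genes were the cuticular protein GB46297 at 406 ± 5 CPM with olea against 329.5 ± 16 CPM with pear. Pro-resilin (GB45553), a rubber-like cuticle protein, was higher by 0.52 in log2.

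Of 58 heat shock and folding genes 6 were higher (10.3%) and 3 lower (5.17%), beside 6.05% and 5.09% over all genes. In the fit with the controls 0 were higher and 1 lower. Their share of all counts went the other way, at 2.23 ± 0.15% with olea and 2.575 ± 0.046% with pear. The difference was -0.342 percentage points (two-sided exact permutation test, p = 0.1), and the controls had 3.25 ± 0.087%. Hsc3 (GB49117), the chaperone of the endoplasmic reticulum, averaged 749 ± 7.7 CPM with olea and 644 ± 13 CPM with pear, and heat shock protein 83 (GB45495) was lower, at -0.19 in log2. Heat shock protein cognate 4 (GB40866), picked after its values were seen, had 12010, 9487 and 8950 CPM with olea and 13870, 14110 and 13410 CPM with pear. Its olea libraries did not overlap the pear libraries but were spread, and it did not pass (edgeR adjusted p = 0.13), although it passed without olea replicate 1 (adjusted p = 1.7e-06). Royal jelly family genes took 0.120% of counts with olea, 0.115% with pear and 2.51% in controls. Of 19 tested, 1 was higher (5.26%) and 1 lower (5.26%), near the shares over all genes. The numbers were 1 and 0 with scaling by total counts alone. They were also 1 and 0 without olea replicate 1, olea replicate 3, pear replicate 1 or pear replicate 2. Of 20 venom genes 1 was higher (5%) and 4 lower (20%). Of 8 glia genes 1 was higher (12.5%) and 2 were lower (25%), or 0 and 1 without pear replicate 2. Of 4 fat body genes transferrin 1 (GB50226) alone passed and was lower, at -0.21 in log2, whereas 1 was higher and 1 lower without pear replicate 2 or with scaling by total counts alone. None of 9 photoreceptor genes passed, and the one with the smallest p, an arrestin (GB50098), had a change of 0.27 ± 0.15 in log2 (edgeR adjusted p = 0.28).

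**Figure D5:**
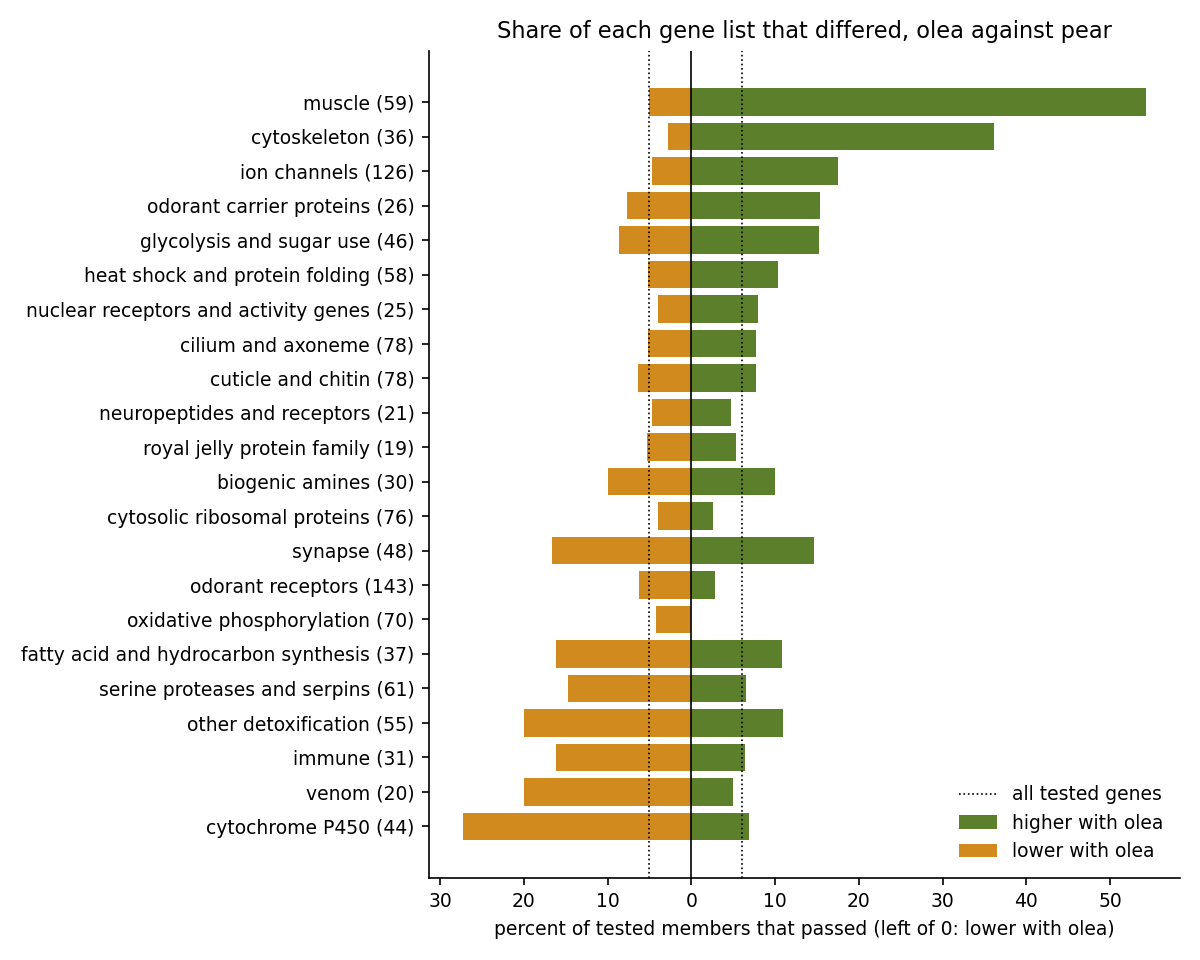
Percent of the tested members of each gene list with at least 15 tested genes that were higher with olea than with pear (right) or lower (left), with the number tested in brackets. Dotted lines are the percentages over all 12687 tested genes. Muscle has 54.2% higher and cytochrome P450 27.3% lower.

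The 5 genes with the highest read counts among those that passed had small changes. Esterase FE4 (GB55921) averaged 30630 ± 223 CPM with olea and 31820 ± 632 CPM with pear, and the change was -0.07 ± 0.02 in log2. A gene with an ecdysteroid kinase domain (GB40157) averaged 10440 ± 206 CPM with olea and 11160 ± 79.8 CPM with pear. The others were GB52324 and GB46230 of the odorant carrier list and a gene without a name (GB47669), with changes of 0.09, -0.18 and -0.08 in log2. Over all 1413 genes the control libraries overlapped only the olea libraries in 177 of the higher and 173 of the lower genes. They overlapped only the pear libraries in 214 of the higher and 89 of the lower genes. Both groups were overlapped by the controls in 87 of the higher and 114 of the lower genes. They lay above both groups in 122 of the higher and 51 of the lower genes, and below both in 134 of the higher and 199 of the lower genes.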

How the data were processed

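Gene expression was measured by RNA sequencing. Per the labels' protocols, RNA was extracted with a Qiagen kit, and 1.3 ug of total RNA went into a SMARTER library kit. HISAT2 is named as the aligner per the submitters' processing notes. The sources used here give neither its version nor the genome build, the annotation, the strand setting or the counter. The authors deposited raw counts of reads per gene and, beside them, FPKM, which divides fragments by transcript length and library size. The deposited table held 17545 genes after 70 overlong lines were joined to the line before. Names came from the table's KEGG hit at an e-value of at most 1e-10 (8913 genes) or from its Pfam domain (1581 genes). For 1522 genes the honey bee hit was not unique, so names may belong to relatives.

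Libraries were grouped by the titles in the labels. The 3 olea and 3 pear libraries of the tentacles were fitted alone with edgeR 4.0.16 in R 4.3.3, using filterByExpr, TMM factors, robust estimation and the quasi-likelihood F test. The p-values were adjusted by Benjamini-Hochberg over all 12687 genes, and passing means an adjusted p below 0.05. Standard errors derive from the F statistic, and CPM was computed from the deposited counts and library totals without TMM. Transcript length was taken from the ratio of counts to FPKM. The procedure was checked on simulated counts. Chi-square statistics of pairs within the olea group and within the pear group showed no library deposited more than once within either group. Pairs between groups and the other libraries were not compared in this way.

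Named genes were the 12 largest changes in each direction among passed genes with a name, at least 5 CPM and no overlap between groups, the 5 passed genes with the most counts, each muscle gene that passed, up to 4 genes with the smallest p per list and direction, and markers. The comparison, the lists and the naming rule were chosen with earlier results of these data known. The names in the table were also read before the lists were completed. Alternatives were DESeq2 1.42.0, limma 3.58.1 on log2(FPKM + 1), other scalings and filters, the 9 tentacles libraries in the fit, a replicate block and leaving out each library. The authors' own comparison columns, the mouthparts libraries and any sequence were not used here. With 3 libraries against 3, an exact permutation test cannot go below p = 0.1.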

Additional observations from a re-analysis of the deposited data

How the results depend on the processing

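The number of genes that differed between olea and pear was 1413. It was 337 (247 higher, 90 lower) with the 9 tentacles libraries in the fit and 797 (469 higher, 328 lower) with limma on log2(FPKM + 1). The cause was not tested for either. Leaving out each library in turn gave 933 to 1361 genes, with 933 without olea replicate 1 and 940 without pear replicate 1. The other settings gave between 1097 and 1452 genes: 1218 with DESeq2, 1411 with RLE size factors, 1359 with total counts only (879 higher, 480 lower), 1312 with no filter, 1452 at a mean of at least 1 CPM, 1187 without robust estimation and 1097 without the 10% of genes with the longest transcripts, an alternative chosen after seeing the data.

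The muscle genes that passed numbered 35 (32 higher, 3 lower) and between 28 and 36 under every setting run, with 28 (27 higher, 1 lower) in the fit with the control libraries and 31 to 35 when each library was left out. The muscle share of counts differed by 0.1973 percentage points, by 0.1846 with TMM effective library sizes and by 0.1932 to 0.2024 when each library was left out. No named gene changed direction under any of the 15 settings.

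Of the 168 named genes that passed, 86 passed under all 15 settings. The fit with the control libraries lost 80 of them, limma on FPKM 30, leaving out a library 11 to 28, and the other settings 0 to 4. The replicate block gave 1307 genes, 697 higher and 610 lower, and lost 3 of the named genes. The labels do not say whether replicate numbers pair the samples. Same-numbered olea and pear libraries deviated from their group means with correlations of 0.0519, -0.00619 and 0.073. Not every library correlated best with its own number. With 3 libraries per group these values cannot decide whether the samples were paired. By name, the 38 genes that lost the call when some library was left out were GB40074, GB40694, GB40730, GB40794, GB40997, GB41003, GB41586, GB43024, GB43029, GB44032, GB45277, GB45651, GB45700, GB45973, GB47513, GB47517, GB47669, GB47944, GB48735, GB49177, GB49295, GB49462, GB50110, GB50119, GB51044, GB51550, GB51945, GB52077, GB52324, GB52374, GB52413, GB52414, GB54541, GB55262, GB55326, GB55875, GB55921 and GB56027. Their highest adjusted p when a library was left out was between 0.05 and 0.18. With the control libraries in the fit the P450 list had 2 genes higher and 2 lower, ion channels 5 and 2, the cytoskeleton 9 and 0, the synapse 2 and 2, odorant receptors 0 and 1 and other detoxification 0 and 1.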
